A study of Mus musculus with 6 samples.

Results

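The genes described here are the 3 PIM kinase genes (Pim1, Pim2 and Pim3) and 7 genes of the CIS and SOCS family (Cish, Socs1, Socs2, Socs4, Socs5, Socs6 and Socs7), that is, the family without Socs3. They were chosen by family name, with earlier results of these data known. All 10 were found among the 29393 Ensembl genes of the deposited mouse count table. The cells were cDNT, double negative T cells obtained by sorting after CD4+CD25- T cells of C57BL/6 mice (adult, spleen in the sample labels) had been cultured ex vivo with IL-2 on mature dendritic cells. In the W/ IL-10 group (3 libraries, IL101 to IL103, numbered 1 to 3 as replicates) the cells received IL-10 at 50 ng/ml for 24 h, together with anti-CD3/CD28 antibodies according to the methods of the study. The W/O IL-10 group (3 libraries, C1 to C3) is labelled as lacking stimulation in one field and as lacking IL-10 in another, and whether it received these antibodies is not stated in the sources used here. The comparison asks how IL-10 changed the transcriptome of cDNT. If the W/O IL-10 cells did not receive the antibodies, IL-10 and the antibodies cannot be told apart for any gene below. The labels do not say whether the libraries of a group came from separate cultures or mice, so the p-values measure the spread between libraries, which may be technical.

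PIM kinases are serine/threonine kinases with a short half-life that need no activation loop phosphorylation, so that their activity follows mostly from how much of them is made. STAT transcription factors, activated by cytokine receptors through JAK kinases, are among the known inducers of their genes, and the kinases promote survival, translation and cell cycle entry in lymphocytes. CIS and the SOCS proteins are feedback inhibitors: their SH2 domain binds phosphorylated receptors or JAKs, and their SOCS box recruits a ubiquitin ligase with elongins and cullin 5. In T cells, CIS and SOCS2 are known chiefly as products of STAT5 signaling, SOCS1 as a brake on interferon-γ and IL-2 family signaling, and SOCS3 as the feedback inhibitor that follows STAT3, the main STAT downstream of the IL-10 receptor.

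Regulatory sequence of the members came from RefSeq (GRCm38.p6), in windows of 300 bases around each annotated start site. Of the 10 members, 6 were in this table, with 7 windows, while Socs2, Socs5, Socs6 and Socs7 had none and were not searched. STAT dimers bind the palindrome TTCNNNGAA, which reads the same on both strands and which 8.30% of all 32851 windows held. The window of Socs3, which is not a member, held this palindrome 1 time. Among the members with a window it was found in that of Cish alone, 2 times, and windows with 2 or more such matches made up 0.457% of all. The stretch of 30 bases that holds both is shown because Cish is the member with these motifs near its start, with the matches in capitals (chr9:107296654-107296683, plus strand, 5 bases before to 25 bases after the start site):
Cish: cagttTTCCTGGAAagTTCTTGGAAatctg
The same palindrome with a longer spacer, found in 6.95% of all windows, was in none of the members' windows. Pim2 was the member with the largest fold change, and the 206 bases before its first annotated exon are shown for that reason (chrX:7878056-7878261, plus strand). Capitals mark, on either strand, the octamer ATGCAAAT, the CCAAT box and the GC box GGGCGG, motifs picked after this sequence was seen:
Pim2: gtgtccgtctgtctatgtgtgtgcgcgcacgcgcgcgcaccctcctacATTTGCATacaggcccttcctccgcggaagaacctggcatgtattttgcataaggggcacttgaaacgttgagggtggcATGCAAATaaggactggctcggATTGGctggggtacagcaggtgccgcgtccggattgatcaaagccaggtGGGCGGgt
The window of Pim2 held the octamer 2 times, and 0.107% of all windows held it at 2 or more places, while none of the other members' windows held it. The first window of Pim1 had 7 GC boxes and 81.3% GC, and that of Pim3 had 4 GC boxes and 69.0% GC, against 62.7% GC for Pim2. At least 1 GC box was present in 35.7% of all windows and a CCAAT box in 37.4%. These matches describe the letters of the windows only.

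Total counts were between 21619420 and 23967088 per library, at which 3 counts, the smallest number taken as detectable, corresponded to 0.123 to 0.146 CPM (library-size scaled counts with TMM factors; counting error only). Every member had 194 counts or more in each library. All 10 members were thus among the 14916 tested genes (at least 10 counts in at least 3 libraries). Cd3d, Cd3e, Cd3g and Trac were at 219 CPM or more in every library, and Cd4 was at most 1.55 CPM. Cd8a, however, was at 95.8 to 119 CPM W/O IL-10 and 139 to 169 CPM W/ IL-10, and Cd8b1 at 32.6 to 44.5 and 57.0 to 66.6 CPM, so that CD8 mRNA was present in cells labelled double negative. Of the other cell types, 10 macrophage markers summed to 26.9 to 35.7 CPM in C1 to C3 and 31.1 to 34.4 CPM in IL101 to IL103, most of it Cd68. Without Cd68 the other 9 summed to 12.6, 6.54 and 5.17 CPM in C1, C2 and C3 and to 5.30, 5.06 and 5.08 CPM in IL101, IL102 and IL103. In C1 to C3 and IL101 to IL103, 9 dendritic cell markers summed to 40.7 to 53.1 and 53.8 to 62.5 CPM, and 6 NK cell markers to 665 to 744 and 466 to 527 CPM, most of the latter Eomes. Of the dendritic cell markers, Clec9a and Siglech had 3 counts or fewer in every library, as had Mertk of the macrophage markers, whereas others were detected in all 6 libraries, such as Zbtb46 (4.66 to 6.99 CPM), Xcr1 (3.47 to 6.56 CPM) and Cd14 (2.31 to 4.54 CPM). The 6 B cell markers summed to 63.4, 157 and 107 CPM in C1, C2 and C3 and to 62.8, 109 and 61.3 CPM in IL101, IL102 and IL103. Fewer cells of a type and less RNA per cell cannot be told apart in these bulk libraries.

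Among the PIM kinases, Pim2 rose 2.73-fold W/ IL-10, Pim1 rose 1.44-fold, and Pim3 showed no difference beyond the spread of its libraries. None of the 7 CIS and SOCS genes passed the test in either direction (edgeR), and 1 of them, Socs2, had an unadjusted p under 0.05. With the call rule of the study (fold change of at least 1.5 and adjusted p-value under 0.05), Pim2 was the only member called, where 1.45% of all tested genes were called in either direction and 0.778% upward. At any fold change, 2 members (Pim1 and Pim2) had an adjusted p-value under 0.05, where 2.19% of all tested genes did.

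Pim2 encodes a PIM kinase that is typically abundant in lymphocytes and acts on translation and on the proapoptotic protein BAD. It lies on chromosome X of GRCm38, 7878262 to 7883432 (ENSMUSG00000031155). Its counts were 2327, 1951 and 1885 in C1, C2 and C3, and 4923, 5318 and 5148 in IL101, IL102 and IL103. The lowest of IL101 to IL103 had more counts than the highest of C1 to C3, a gap wider than the spread within either group. In CPM, Pim2 went from 85.7 ± 8.16 to 234 ± 7.15 (SD, n = 3 libraries per group). Its log2 fold change of 1.45 had a standard error of 0.09 and an adjusted p = 0.000248 in the quasi-likelihood test of edgeR (adjusted by Benjamini-Hochberg over every tested gene), with a 95% interval of the fold change of 2.38 to 3.12. By p-value it ranked number 3 of the 14916 genes. With each library left out in turn its log2 fold change stayed between 1.40 and 1.52, and its adjusted p-value reached at most 0.00493. The summed coreceptor mRNA (130 to 165 CPM in C1 to C3, 198 to 233 CPM in IL101 to IL103) and the summed T cell markers (2154 to 2451 and 2711 to 2839 CPM) were also higher in each library W/ IL-10. Single genes of these sums differed. Cd5 was lower in each library W/ IL-10 (56.9 to 70.9 and 43.3 to 47.1 CPM). Cd3d, Cd3e, Cd28, Zap70, Trac and Cd4 overlapped between the groups. The sum of the dendritic cell markers was also higher in each library W/ IL-10, through Itgax. The other 8 summed to 34.2, 23.2 and 18.05 CPM in C1, C2 and C3. In IL101, IL102 and IL103 they summed to 16.4, 13.9 and 13.1 CPM, which is lower. Most of this decrease lay in Ccl22, at 5.90 CPM or more in C1 to C3 and 3.79 CPM or less in IL101 to IL103. Zbtb46 was also lower in each library W/ IL-10. Xcr1 was higher in each (4.10 CPM or less W/O IL-10, 4.66 CPM or more W/ IL-10), and the others overlapped between the groups. The NK cell sum was lower W/ IL-10, and without Eomes it overlapped between the groups (139 to 246 and 109.5 to 174 CPM). The part of these markers in the values of Pim2 and Pim1 was not tested.

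Pim1, the founding member of the family and a known target of STAT3 and STAT5 (ENSMUSG00000024014, chromosome 17, 29490753 to 29496112), was the most abundant member. It had 287, 254 and 248 CPM in C1, C2 and C3 and 376, 382 and 375 CPM in IL101, IL102 and IL103. The groups did not overlap, which was so with higher values W/ IL-10 in 11.3% of all tested genes, and the W/ IL-10 libraries lay closer together (SD 3.70 CPM) than the W/O IL-10 libraries (SD 21.1 CPM). On the log2 scale it rose by 0.52 ± 0.08 (standard error; edgeR, adjusted p = 0.0190), with a 95% interval of the fold change of 1.26 to 1.63. Its estimate of 1.44-fold is under 1.5-fold, so Pim1 was not called. An adjusted p-value under 0.05 with a higher value W/ IL-10, at any fold change, was reached by 1.21% of all tested genes. Without C1 the adjusted p was 0.00157, but it was no longer under 0.05 without C2 (0.106), without C3 (0.0679), or when IL101 (0.0779), IL102 (0.0712) or IL103 (0.112) was left out. The exons of Pim1 have 54.4% GC, and once the fit was corrected for GC and exon length Pim1 passed the call rule at 0.61 on the log2 scale (adjusted p = 0.00114, edgeR).

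Pim3, the PIM kinase best known from epithelial and endocrine tissues (ENSMUSG00000035828, chromosome 15, 88862186 to 88865726), had 83.1, 108 and 94.3 CPM in C1, C2 and C3 and 78.3, 100.1 and 79.8 CPM in IL101, IL102 and IL103. The groups overlapped, and replicate 2 was the highest library in both. The B cell markers were also highest in replicate 2 of both groups; their part in the values of Pim3 was not tested. The log2 fold change of Pim3 was -0.14 (standard error 0.12, adjusted p = 0.636, edgeR), and the 95% interval of the fold change ran from 0.745 to 1.10, that is, within 1.5-fold in either direction.

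**Figure D1:**
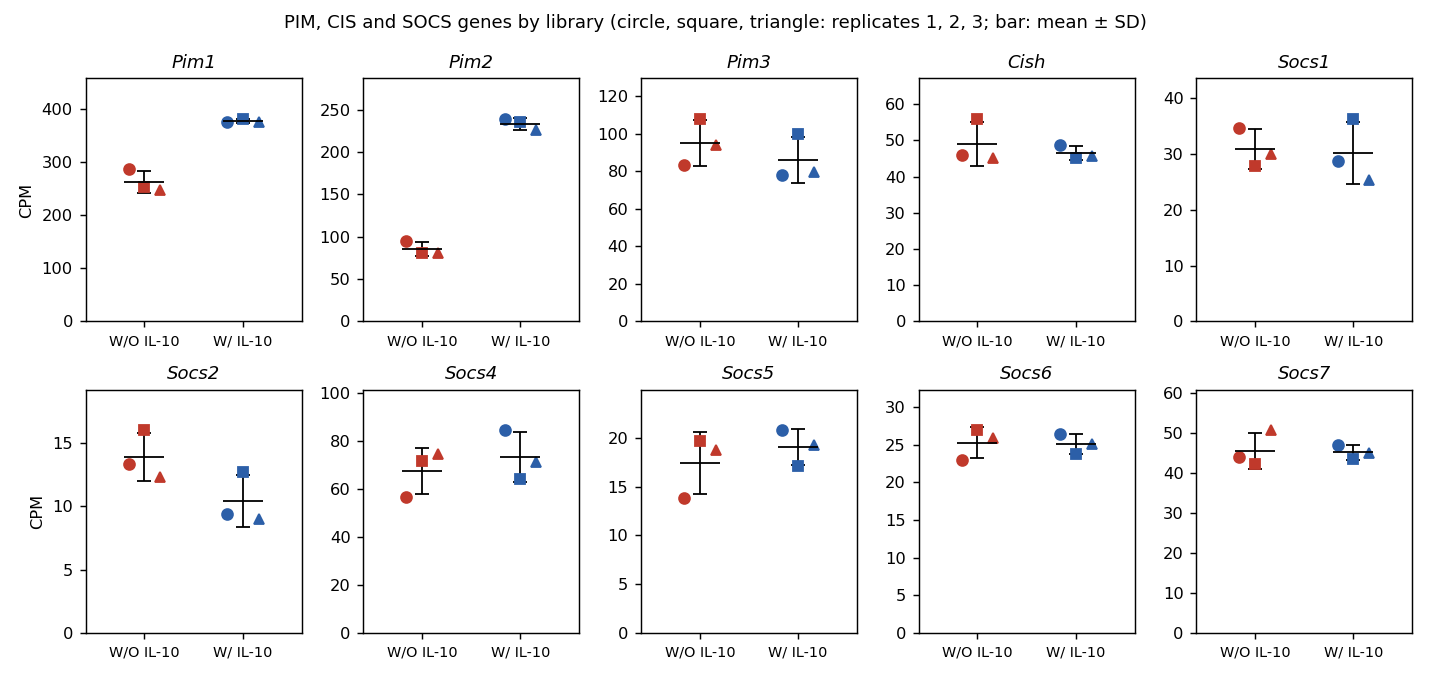
Expression of each gene (CPM, from 0) in the 3 W/O IL-10 (red) and 3 W/ IL-10 (blue) libraries, with circles, squares and triangles for replicates 1, 2 and 3 and bars for mean ± SD. The groups are apart for Pim1 and Pim2, and they overlap for the other 8 genes.

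The responses of the PIM kinases were compared as ratios within each library. Pim1 exceeded Pim2 by 1.62 ± 0.03 on the log2 CPM scale in C1 to C3 and by 0.69 ± 0.04 in IL101 to IL103 (SD, n = 3). Of the 6 ratios tested, this was the one with the smallest SD in both groups. Pim2 over Pim3 went from -0.15 ± 0.31 to 1.45 ± 0.19, and Pim1 over Pim3 from 1.47 ± 0.28 to 2.14 ± 0.18 (log2 ratio, SD, n = 3). In all 3 ratios the groups did not overlap, and each had p = 0.1 in a two-sided exact permutation test, the smallest p that 3 libraries against 3 can give (adjusted p = 0.15 over the 6 ratios tested), so that these differences cannot pass a threshold of 0.05 in this design.

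Levels of different genes were compared per kilobase of exon (CPM per kb). Summed over the family, PIM mRNA went from 148 ± 6.05 to 231 ± 7.24 CPM per kb (SD, n = 3), 1.56 times as much (exact permutation p = 0.1). The part of Pim2 in this sum was 20.7 ± 1.38% in C1 to C3 and 36.1 ± 1.02% in IL101 to IL103. That of Pim1 went from 52.8 ± 2.50% to 48.6 ± 1.06%, and that of Pim3 from 26.5 ± 3.87% to 15.3 ± 1.70% (SD, n = 3, exact permutation p = 0.1 for each, adjusted p = 0.333 over the 10 shares tested). W/O IL-10 the order was Pim1, Pim3, Pim2, with no overlap between neighbours. W/ IL-10 it was Pim1 (112 ± 1.10 CPM per kb), Pim2 (83.6 ± 2.56) and Pim3 (35.5 ± 5.02). When the longest transcript stood for the length, Pim2 was already second W/O IL-10 (41.9 against 39.2 CPM per kb for Pim3), so that only the order W/ IL-10 held under both lengths.

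**Figure D2:**
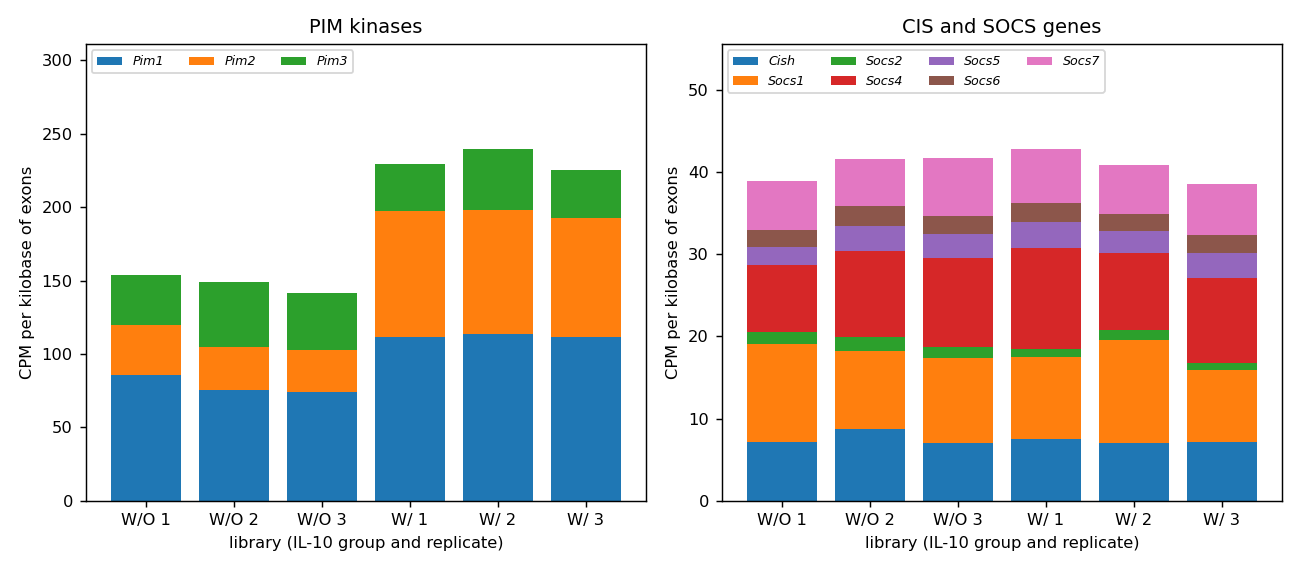
Stacked levels of the PIM genes (left) and of the CIS and SOCS genes (right) in each library, in CPM per kilobase of exons from 0. The PIM sum is 142 to 154 in C1 to C3 and 225 to 239 in IL101 to IL103, with most of the added height in Pim1 and Pim2, while the sum of the CIS and SOCS genes is 38.6 to 42.8 in all 6 libraries.

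The CIS and SOCS genes were expressed at a lower level than the PIM kinases, and their sum was 40.8 ± 1.55 CPM per kb in C1 to C3 and 40.8 ± 2.11 in IL101 to IL103 (SD, n = 3, exact permutation p = 1). W/O IL-10 the order was Socs1 (10.6 ± 1.22 CPM per kb), Socs4 (9.85 ± 1.40), Cish (7.63 ± 0.937), Socs7 (6.26 ± 0.619), Socs5 (2.72 ± 0.491), Socs6 (2.23 ± 0.181) and Socs2 (1.46 ± 0.200). The libraries of Socs1 and Socs4, of Socs4 and Cish, and of Socs5 and Socs6 overlapped. W/ IL-10, Socs4 (mean 10.7) and Socs1 (mean 10.4 CPM per kb) stood first and overlapped, and the other 5 kept their places. With the longest transcript as the length, Cish was above Socs4 W/O IL-10 and Socs6 above Socs5 in both groups.

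Cish encodes CIS, a feedback inhibitor of STAT5-activating receptors that also restrains T cell receptor signaling (ENSMUSG00000032578, chromosome 9, 107296026 to 107302784). It had 45.9, 55.9 and 45.1 CPM in C1, C2 and C3 and 48.6, 45.1 and 45.7 CPM in IL101, IL102 and IL103. Apart from C2, the 6 values lay within a few CPM of each other and the groups overlapped. The log2 fold change was -0.08 (adjusted p = 0.774, edgeR), with a 95% interval of the fold change of 0.812 to 1.11. This interval lies within 1.5-fold in either direction.

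Socs1, the strongest inhibitor of JAK catalytic activity in the family together with SOCS3 (ENSMUSG00000038037, chromosome 16, 10782240 to 10785536), had 34.8, 27.8 and 30.1 CPM in C1, C2 and C3 and 28.8, 36.3 and 25.5 CPM in IL101, IL102 and IL103. The highest and the lowest value were both W/ IL-10. The log2 fold change was -0.03 (adjusted p = 0.942, edgeR), with a 95% interval of the fold change of 0.780 to 1.22.

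Socs2, a regulator of growth hormone signaling and a STAT5 target (ENSMUSG00000020027, chromosome 10, 95385362 to 95417180), had the lowest level of the 10 and the largest difference among the CIS and SOCS genes. It had 326, 387 and 286 counts in C1, C2 and C3 and 194, 287 and 205 counts in IL101, IL102 and IL103, with means of 13.9 ± 1.91 and 10.4 ± 2.06 CPM (SD, n = 3). IL102 (12.7 CPM) lay above C3 (12.3 CPM), so that the groups overlapped, and replicate 2 was again the highest in both groups. The log2 fold change of -0.42 (standard error 0.17) had an adjusted p = 0.288 in edgeR's test (unadjusted 0.0346), where 14.7% of all tested genes had an unadjusted p under 0.05. The 95% interval of the fold change, 0.575 to 0.974, reached beyond 1.5-fold downward, and so includes a decrease of that size. The B cell markers, highest in the same replicate of both groups, were not tested for a part in it. The ratio of Cish to Socs2 differed by 0.36 on the log2 scale between groups (exact permutation p = 0.2), that of Socs1 to Socs2 by 0.38 (p = 0.1 in the exact test; 0.22 without replicate 2 of both groups), and that of Cish to Socs1 by -0.03 (exact permutation p = 1).

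Socs4 and Socs5, which have long N-terminal regions and are known for binding the EGF receptor, had overlapping groups. Socs4 (ENSMUSG00000048379, chromosome 14, 47276931 to 47296102) had 56.8, 71.8 and 74.6 CPM in C1, C2 and C3 and 84.5, 64.3 and 71.2 CPM in IL101, IL102 and IL103. The log2 fold change was 0.11 (adjusted p = 0.731, edgeR), with a 95% interval of the fold change of 0.883 to 1.33. Socs4 has the lowest GC content of the members, 38.9%, and the 430 tested genes within 1 percentage point of it had a median log2 fold change of 0.26, whereas after the GC and length correction Socs4 was at -0.18 (adjusted p = 0.478, edgeR). Its direction thus depended on the correction, without a call in either case. Socs5 (ENSMUSG00000037104, chromosome 17, 87107679 to 87137839) had 13.9, 19.7 and 18.7 CPM in C1, C2 and C3 and 20.8, 17.1 and 19.3 CPM in IL101, IL102 and IL103, and differed by 0.13 on the log2 scale (edgeR, adjusted p = 0.736), with a 95% interval of the fold change of 0.866 to 1.38. C1 was the lowest library for both genes.

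Socs6 and Socs7, the other members with long N-terminal regions, are linked to insulin and receptor tyrosine kinase signaling. Socs6 (ENSMUSG00000056153, chromosome 18, 88665224 to 88927481) had 23.0, 26.9 and 25.9 CPM in C1, C2 and C3 and 26.4, 23.8 and 25.1 CPM in IL101, IL102 and IL103. Socs7 (ENSMUSG00000038485, chromosome 11, 97362551 to 97398542) had 43.8, 42.0 and 50.6 CPM in C1, C2 and C3 and 47.0, 43.3 and 44.9 CPM in IL101, IL102 and IL103. Both genes had overlapping groups and log2 fold changes of -0.01 (adjusted p = 0.979 and 0.966, edgeR). The 95% intervals of their fold changes, 0.852 to 1.16 and 0.858 to 1.14, were the narrowest of the CIS and SOCS genes on the log2 scale.

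Socs3, described here only as the remaining family member, went from 10.6 ± 0.906 to 37.4 ± 7.11 CPM (SD, n = 3). On the log2 scale it rose by 1.82 (edgeR, adjusted p = 0.00102). Its groups did not overlap, while those of all 7 relatives did. Over all tested genes, groups were apart in 11.3% (higher W/ IL-10) and 11.2% (lower), so overlap was the common case. W/O IL-10 the mean CPM of Socs3 was below that of each member. Per kilobase of exon, however, Socs3 (3.66 CPM per kb) was above Socs5 (2.72), Socs6 (2.23) and Socs2 (1.46) W/O IL-10. The difference between Socs3 and its relatives was not tested.

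**Figure D3:**
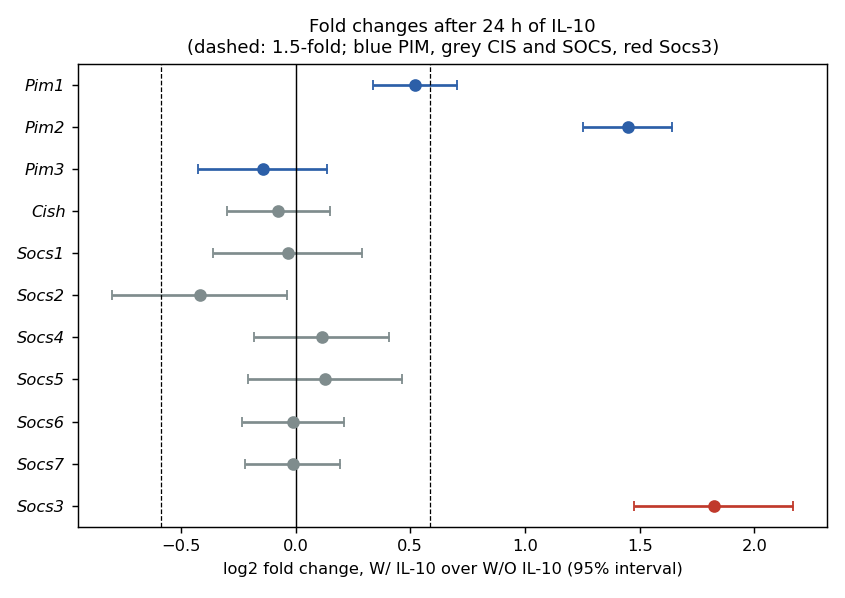
log2 fold change (W/ IL-10 over W/O IL-10) of the 10 members and Socs3 with 95% intervals, with dashed lines at 1.5-fold. Pim2 at 1.45 and Socs3 at 1.82 lie beyond 1.5-fold with their whole intervals, Pim1 at 0.52 straddles it, and the intervals of Pim3 and of 6 of the 7 CIS and SOCS genes lie between the dashed lines.

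Some members share sequence with other genes or overlap them. Of the 50-base stretches of each member, 9.35% (Cish), 8.78% (Pim1), 6.14% (Socs6), 4.58% (Socs2), 1.57% (Pim2) and 0.31% (Socs4) also occur in transcripts of other genes, and none do for Pim3, Socs1, Socs5 and Socs7. The opposite-strand gene Gm26885 covers 14.5% of the exon bases of Pim1, and it had 0 to 2 counts per library. Of the exon bases of Cish, 11.5% lie under opposite-strand genes, and one of them, Gm17040, had 2 to 7 counts. Whether the counting used strand is not given in the sources used here.

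Neither of the neighbours of Pim2 on the chromosome passed the test. Otud5, which ends 1636 bases before Pim2, had an edgeR adjusted p = 0.831 at 0.05 on the log2 scale, and Slc35a2, which starts 596 bases after it, was at 0.19 (adjusted p = 0.409). For Pim1 the nearest tested genes, Fgd2 and Tbc1d22b, had log2 fold changes of -0.62 and 0.09 (adjusted p = 0.449 and 0.665, edgeR). None of the 20 nearest tested genes of the 10 members, 1 on each side, was called.

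The tested genes most like Pim2 over the 6 libraries, by root mean square distance of centred log2 CPM, were Ly6a (distance 0.09), Fam20a (0.12) and Pltp (0.12). All 3 were called, with log2 fold changes of 1.33, 1.58 and 1.43 (adjusted p = 0.000924, 0.000202 and 0.000707, edgeR). Those most like Pim1 were Hsd17b10, Adamts14 and Serpinb1a (distance 0.04, 0.05 and 0.05). Their log2 fold changes were 0.50, 0.49 and 0.56 (adjusted p = 0.0322, 0.0190 and 0.0247, edgeR), and none of them was called. As the distance uses the values that the fold change is made of, these genes share the difference between the groups by construction.

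Genes that act upstream, beside or downstream of the members were read from lists by role. Of 11 JAK and STAT genes, Jak3, the kinase of the common γ chain, was called (log2 fold change 0.66, adjusted p = 0.00831, edgeR), and the median of the list was -0.02, against 0.01 over all tested genes. Of 24 tested receptor chains that signal through JAKs, 1 was called upward and 3 downward (median -0.10), where 1.45% of all tested genes were called. In edgeR's test, 3 of the JAK and STAT genes and 13 of the receptor chains had an unadjusted p under 0.05, against 14.7% of all tested genes. Il21r, a receptor chain that acts through STAT3, had a called rise of 0.69 (log2 scale; edgeR, adjusted p = 0.0424). Il10ra, the ligand-binding chain of the IL-10 receptor, fell from 419 ± 28.5 to 218 ± 10.5 CPM (SD, n = 3), or -0.95 on the log2 scale (edgeR, adjusted p = 0.00122). Csf2rb and Csf2rb2, near-identical β chains between which reads may be split, fell by 0.68 and 0.63 (log2 scale, adjusted p = 0.0407 and 0.0447, edgeR).

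The other brakes of the pathway and the SOCS box machinery held no call, where 1.45% of all tested genes were called and 14.7% had an unadjusted p under 0.05, so that few calls would be met in lists of this size. None of 13 further inhibitors of JAK-STAT signaling (phosphatases, PIAS proteins, CBL ligases and others) had an adjusted p-value under 0.05 in edgeR's test, 2 had an unadjusted p under 0.05, and their log2 fold changes lay between -0.32 and 0.30 (median 0.06). Of 8 genes of elongin and cullin ligases and their partner enzymes, none passed and 2 had an unadjusted p under 0.05 in edgeR's test (median log2 fold change 0.16, from -0.01 to 0.28). Of 26 other SOCS box genes 14 were tested, with log2 fold changes from -0.27 to 0.26 (median -0.03), of which 1 had an unadjusted p under 0.05 and none an adjusted one (edgeR).

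Among 10 known PIM substrates, Foxo3, a transcription factor that promotes apoptosis and quiescence, went from 77.3 ± 1.83 to 58.0 ± 1.62 CPM (SD, n = 3), or -0.41 on the log2 scale (edgeR, adjusted p = 0.0222), and none of the list was called (median -0.03). Of 10 STAT5 targets outside the members, Gzmb was called upward and Lta downward, at 1.17 and -0.88 on the log2 scale, and the median was -0.02. Ccnd2, also a STAT5 target, was lower within 1.5-fold, at -0.39 (adjusted p = 0.0422, edgeR). Of 10 STAT3 targets, Socs3, Bcl3 and Junb were called upward (Bcl3 at 1.69 and Junb at 0.62 on the log2 scale), none was called downward, and the median was 0.35. Batf, at 0.48 (adjusted p = 0.0390, edgeR), was higher within 1.5-fold. Maf, at -0.52 (adjusted p = 0.0272, edgeR), went the other way within 1.5-fold. In edgeR's test, 3 PIM substrates, 6 STAT5 targets and 9 STAT3 targets had an unadjusted p under 0.05, against 14.7% of all tested genes. The call rule was met by 1.45% of all tested genes. As some of the listed genes had been described from the same libraries before the lists were made, the counts are descriptions.

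**Figure D4:**
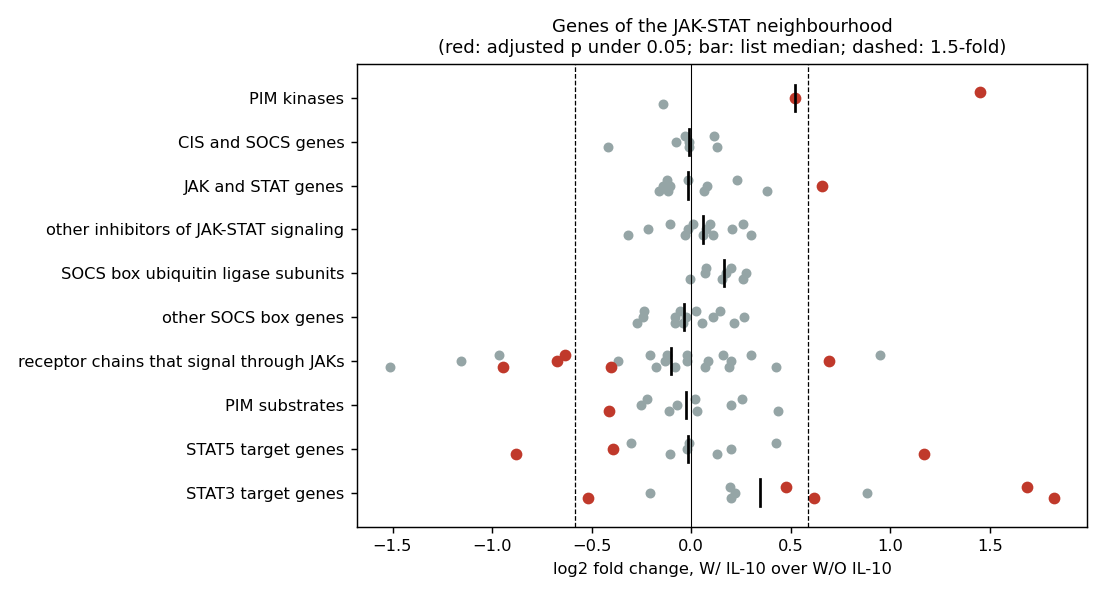
log2 fold change (W/ IL-10 over W/O IL-10) of the tested genes in each list, with genes of adjusted p under 0.05 in red, list medians as bars and dashed lines at 1.5-fold. The members' lists stand on top; the median is 0.35 for the STAT3 targets and between -0.10 and 0.16 for the other lists below the members.

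**Figure D5:**
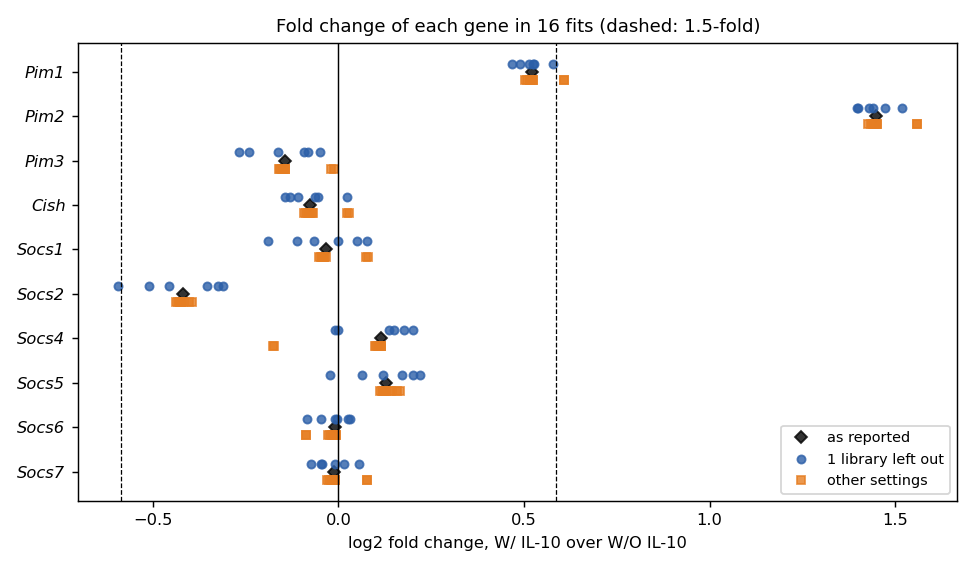
log2 fold change of each member as reported (black diamonds), with 1 library left out (blue circles, 6 fits) and under 9 other settings (orange squares), with dashed lines at 1.5-fold. Pim2 stays between 1.40 and 1.56 and Pim1 between 0.47 and 0.61, while Cish, Socs1, Socs4, Socs5, Socs6 and Socs7 fall on either side of 0.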

How the data were processed

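The authors deposited 1 table of raw counts per Ensembl gene for 6 libraries, not normalized and not pooled. The submitters' processing notes name HISAT2, HTSeq and GRCm38, whereas the methods of the study name TopHat and Cufflinks with UCSC annotation; versions, strand setting and annotation release are not given in the sources used here. The labels name a TruSeq kit and the methods a NEBNext kit. Symbols, coordinates, lengths and GC content came from GENCODE M21 (GRCm38), which held 29332 of the 29393 identifiers. Library depth is given with the results.

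edgeR 4.0.16 (R 4.3.3) computed TMM factors and the quasi-likelihood test on 14916 genes, without a replicate block, and p-values were adjusted over all of them. The standard error is the unshrunk log2 fold change divided by the square root of F. Ratios between members used log2 CPM with a prior count of 2. DESeq2 1.42.0, limma-voom (limma 3.58.1), upper-quartile scaling, other filters, glmTreat with a 1.5-fold null, the replicate block, a spline correction (5 degrees of freedom) for GC content and length, and leaving out each library were alternatives. The fit was tested on simulated counts. Members, lists and alternatives were chosen with earlier results of these data known. The named genes are the members, Socs3, the 3 genes most like each member with an adjusted p under 0.05, and the called genes of each list. Flanking and overlapping genes, Foxo3, Maf, Ccnd2 and Batf were added after their values were seen. Plots were drawn with matplotlib 3.10.9.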

Additional observations from a re-analysis of the deposited data

How the results depend on the processing

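Pim2 was called under all 15 alternatives, and none of the CIS and SOCS genes was called under any, so the counts of calls among the members were 1 and 0 throughout, except that 2 PIM kinases were called after the GC and length correction, alone or with the replicate block, where Pim1 had a log2 fold change of 0.61. The cause was not tested. Over all genes, calls numbered 176 upward and 183 downward with DESeq2, 302 and 337 without the filter on low counts, and 14 and 1 against a 1.5-fold null. From 116 and 101 with all libraries they fell to 48 and 27 without C2, 45 and 12 without IL101, 63 and 35 without IL102 and 31 and 4 without IL103. Without C3 they were 95 and 85, and without C1 they rose to 124 and 130. The share of all genes called thus also rests on which libraries are used. Log2 fold changes near 0 turned with the GC and length correction for Cish (0.023, and 0.028 with the replicate block), Socs1 (0.080 and 0.075), Socs4 (-0.18 and -0.17) and Socs7 (0.076 and 0.078). Leaving out 1 library gave Pim3 -0.27 to -0.050 (-0.021 after the GC and length correction), Cish -0.14 to 0.024, Socs1 -0.19 to 0.076, Socs4 -0.0087 to 0.20, Socs5 -0.023 to 0.22, Socs6 -0.084 to 0.032 and Socs7 -0.074 to 0.056. When the libraries of one replicate number were left out of both groups, differences of family shares ran, in percentage points, from -2.20 to 0.489 (Cish), -4.85 to 2.71 (Socs1), -0.727 to 4.19 (Socs4), -0.0380 to 1.41 (Socs5), -0.167 to 0.253 (Socs6) and -0.525 to 0.155 (Socs7), and with the longest transcript as the length those of Socs6 and Socs7 were 0.0543 and 0.0181. Under that omission of both libraries, the difference in the ratio of Cish to Socs1 ran from -0.22 to 0.31 on the log2 scale, and that of Socs1 to Socs2 from 0.22 to 0.47. With 3 libraries per group, the interval of Socs2 did not reach a resolution of 1.5-fold.

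Deviations of same-numbered libraries correlated at 0.0524, -0.0573 and 0.114 (mean 0.0362, against -0.0175 for different-numbered libraries). For replicates 1 and 3, but not 2, the same number was also the best match. With the GC and length correction, 579 genes had an adjusted p under 0.05 without the replicate block and 1000 with it (edgeR). Whether the replicate numbers pair the libraries was therefore not settled. With the replicate block alone 103 genes were called upward and 93 downward. Among the members the count stayed at 1 PIM kinase and 0 CIS and SOCS genes (Pim2 log2 fold change 1.45, adjusted p = 0.00119, and Pim1 0.52, adjusted p = 0.0316, edgeR).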
